A study of Mus musculus with 12 samples.

Results

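The proteasome genes of mouse acute myeloid leukaemia (AML) cells were followed through 24 h of treatment with a MEK, an mTOR or a PI3K inhibitor. Members were the genes whose symbol starts with Psm, a letter from a to g and a number, with a mean of at least 1 FPKM (fragments scaled to transcript length and library size) over the 12 libraries, and 47 of the 23234 genes in the table met this. Of 49 symbols of that form, Psma8, a testis form of an alpha subunit, was listed at 0 and Psmb11, the catalytic subunit of the thymic cortex, averaged 0.00207 FPKM, so both fell outside, while the lowest members inside were Psmc3ip with 5.01 and Psmd9 with 8.19 FPKM. Psmc3ip shares the name pattern but encodes a cofactor of meiotic recombination and is no proteasome part. It is counted among the 47 and given apart from the subunits. Of the 47, 5 genes (Psmb8, Psmb9, Psmb10, Psme1 and Psme2) belong to the interferon-inducible immunoproteasome and its activator and were described apart from the other 42.

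The cells were primary AML cells of the genotype NRASG12V/Mll-AF9 from (FVB/n X C57/BL/6J) F1 mice, so every group, controls included, carried both activated NRAS and the MLL fusion, whose promoters the labels do not name. They were kept in RPMI medium with serum and the growth factor GM-CSF. The 4 groups of 3 libraries received the solvent DMSO alone, the MEK inhibitor PD325901 at 20 µM, the mTOR complex 1 inhibitor RAD001 (everolimus) at 26 µM or the PI3K inhibitor GDC0941 (pictilisib) at 20 µM. The labels name neither the number of mice nor separate cultures behind the replicates, so the p-values below measure only the spread between these libraries, which may be technical. Only 1 dose and 1 time were sampled for each inhibitor.

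The proteasome is the main protease of the cytosol and nucleus for proteins tagged with ubiquitin. Its 20S core is a barrel in which rings of alpha subunits close off rings of beta subunits, and the beta subunits encoded by Psmb5, Psmb6 and Psmb7 carry the cutting sites. The 19S regulatory particle caps the barrel, binds and strips ubiquitin and pushes the unfolded chain inside with its ring of ATPases. In blood cells and after interferon, Psmb8, Psmb9 and Psmb10 replace the constitutive cutting subunits, and the PA28 ring made from Psme1 and Psme2 can replace the cap. The peptides so made feed the display on MHC class I molecules, beginning with their transport by Tap1 and Tap2.

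The deposited table gives no read totals, and depths estimated from the smallest steps in low values lay between 0.846 and 1.21 times that of DMSO replicate 1, a rough estimate. Replicate 1 stood apart in every group, with the lowest library weight in limma's estimate (0.203 to 0.406). Of 10 markers of myeloid cells, 9 had a row and 8 averaged at least 1 FPKM in each group, with sums of 956 to 965 FPKM under DMSO, 1141 to 1166 under PD325901, 2084 to 2148 under RAD001 and 1231 to 1349 under GDC0941, while Lyz2, a myeloid lysozyme, was listed at 0 in all libraries. The 8 markers of T and NK cells summed to 2.22 to 7.63 FPKM under DMSO, 2.00 to 11.4 under PD325901, 0.481 to 4.64 under RAD001 and 0.228 to 2.18 under GDC0941. The 5 B cell markers summed to 4.59 to 5.96, 6.76 to 8.13, 0.961 to 2.13 and 0.643 to 2.23 FPKM in the same order (Pax5 was listed at 0 throughout), and the 7 markers of stroma and endothelium, nearly all from Pecam1, to 12.6 to 16.9, 7.44 to 10.9, 6.999 to 8.35 and 1.73 to 2.51. Erythroid markers summed to 0.234 to 3.58 FPKM. In the megakaryocyte list nearly all of the signal came from Pf4 (platelet factor 4), and the list's sum ran from 77.1 to 133 FPKM under DMSO, 10.8 to 35.6 under PD325901, 215 to 278 under RAD001 and 3.72 to 4.76 under GDC0941. The part of these cell mixtures in the results below was not tested. In such bulk libraries fewer cells of a type and less RNA per cell cannot be told apart.

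In DMSO the members spanned from 6.98 ± 0.42 FPKM for Psmc3ip to 273 ± 45.8 for Psme2 (SD, n = 3), and since FPKM is scaled to transcript length, levels could be set side by side. The 20S core was the more abundant part at the RNA level. Its alpha ring ran from Psma3 (92.99 ± 8.51 FPKM) to Psma7 (222 ± 24.6), and its beta subunits without a cutting site from Psmb2 (142 ± 11.3) to Psmb4 (240 ± 18.9 FPKM). The 3 constitutive cutting subunits were close to each other, at 162 ± 9.1 FPKM for Psmb5, 159 ± 11.4 for Psmb6 and 161 ± 4.5 for Psmb7, within their spread. In the 19S particle the ATPases ran from Psmc6 (63.4 ± 1.3) to Psmc1 (104 ± 3.2). The base scaffold and ubiquitin receptors ran from Psmd1 (50.6 ± 2.0) to Psmd2 (107 ± 3.1), and the lid from Psmd12 (45.8 ± 0.093) to Psmd8 (174 ± 17.1 FPKM). The assembly chaperones, which guide subunits into place and leave the finished particle, were lower. Those of the 19S base ran from Psmd9 (9.32 ± 0.31) to Psmd5 (24.1 ± 1.7), and those of the 20S core from Psmg3 (18.3 ± 2.1) to Psmg4 (41.8 ± 6.1 FPKM). Among the remaining regulators, the nuclear activator ring Psme3 was at 44.7 ± 1.8 FPKM, the large activator Psme4 at 14.2 ± 0.6 and the inhibitor Psmf1 (PI31) at 8.74 ± 0.21. The immunoproteasome genes ran from Psmb10 (102 ± 33.2) to Psme2 (273 ± 45.8 FPKM). Psmb8, at 194 ± 49.8, was within its spread of its constitutive counterpart Psmb5, and Psmb9, at 136 ± 40.5, of Psmb6, while Psmb10 was below Psmb7 in each DMSO library. Psme2, Psmb5, Psmb6, Psmb7 and Psma5 have near-identical retrocopies in the mouse genome, so their values are uncertain to the extent that reads were split among copies.

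Promoter windows of 300 bases (250 before to 50 after the start, from RefSeq, build GRCm38.p6) were found for 40 of the 47 members, in 43 windows. The expression files name the build mm9, and no coordinate was carried from 1 build to the other. The 4 windows below are shown because they stand before the genes that carried the main results, namely the pair of immunoproteasome genes that fell most under PI3K inhibition, a constitutive cutting subunit and the core chaperone with the largest fall, and each is printed 5′ to 3′ on the strand of its gene with motif matches in capitals. Psmb9 (chr17:34187281-34187580, minus strand) shows a CCAAT box, read as ATTGG on this strand, beginning at position -8 from the start. Psmb8 (chr17:34197945-34198244, plus strand) shows a gamma-activated site (TTCNNNGAA), beginning at -97. Psmb5 (chr14:54617946-54618245, minus strand) shows an antioxidant response element (TGACNNNGC), the letters bound by NRF1 and NRF2 with small MAF partners, beginning at -47. Psmg1 (chr16:95990911-95991210, minus strand) shows a gamma-activated site at -243 and an ETS core (CCGGAAG) at -69.
Psmb9: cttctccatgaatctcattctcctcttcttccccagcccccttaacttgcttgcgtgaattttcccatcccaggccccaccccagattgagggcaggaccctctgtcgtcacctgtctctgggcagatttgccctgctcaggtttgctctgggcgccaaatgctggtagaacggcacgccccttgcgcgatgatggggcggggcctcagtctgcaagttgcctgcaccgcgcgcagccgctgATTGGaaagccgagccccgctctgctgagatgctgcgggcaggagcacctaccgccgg
Psmb8: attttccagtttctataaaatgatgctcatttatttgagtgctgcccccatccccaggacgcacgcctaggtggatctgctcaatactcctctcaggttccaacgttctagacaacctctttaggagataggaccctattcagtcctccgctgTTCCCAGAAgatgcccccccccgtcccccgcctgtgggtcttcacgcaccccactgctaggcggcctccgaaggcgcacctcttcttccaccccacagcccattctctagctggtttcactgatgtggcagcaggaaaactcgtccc
Psmb5: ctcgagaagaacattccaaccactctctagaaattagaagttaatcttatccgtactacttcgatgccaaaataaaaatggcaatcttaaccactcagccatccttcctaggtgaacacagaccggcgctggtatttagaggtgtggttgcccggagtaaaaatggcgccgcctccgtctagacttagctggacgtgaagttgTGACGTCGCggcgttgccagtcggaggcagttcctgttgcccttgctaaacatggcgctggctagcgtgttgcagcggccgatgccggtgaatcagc
Psmg1: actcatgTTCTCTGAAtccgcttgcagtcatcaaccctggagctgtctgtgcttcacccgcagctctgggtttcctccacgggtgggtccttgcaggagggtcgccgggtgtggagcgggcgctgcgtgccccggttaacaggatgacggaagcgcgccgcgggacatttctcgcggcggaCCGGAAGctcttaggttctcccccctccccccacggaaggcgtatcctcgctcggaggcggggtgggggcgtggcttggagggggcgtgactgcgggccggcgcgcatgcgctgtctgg

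The Psmb9 window is also the start of a second gene of the same route, since it shares 275 of its 300 bases with the window of Tap1, which is read from the opposite strand. Searched on both strands, the ETS core was in 37.2% of the members' windows, against 19% of the windows of all genes tested and 8.86% of all windows. The antioxidant response element was in 14.0% of the members' windows against 14.8% of those of genes tested, and its 6 carriers were Psmb5, Psmb6, Psmc6, Psmd12, Psmd9 and Psme4. The gamma-activated site was in 6.98% against 6.9%, with Psmb8, Psmd2 and Psmg1 as carriers. The interferon-stimulated element (GAAA, 2 bases of any kind and GAAA) was in 11.6% against 3.25%, with Psme1 as its 1 carrier among the immunoproteasome genes and Psmb3, Psmd4, Psmd9 and Psmg4 as the others, and the CCAAT box was in 32.6% against 37.8%. These are descriptions of letters in a short window and say nothing of whether a factor binds there.

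With the MEK inhibitor PD325901, RNA levels of most genes of the particle were lower. Against DMSO, 38 of the 47 members fell and 0 rose (limma on log2(FPKM + 1), adjusted p under 0.05; 0 also rose at an unadjusted p under 0.05), where 28.2% of all 10305 genes tested fell and 18.4% rose. The median change of the members was -0.48 on the log2 scale against -0.06 over all genes tested. In 40 members the 3 treated libraries all lay below the 3 DMSO libraries, as did those of 36.9% of all genes, and in 0 all lay above, as in 25.8% of all genes. Of the 41 proteasome genes outside the immunoproteasome, 36 fell, and the 5 that did not pass were Psmd8, Psmd10, Psmg4, Psme4 and Psmf1. Over all genes, 60.6% of the calls were toward lower values, and 47.9% after quantile normalization, under which the members' median was -0.44.

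**Figure D1:**
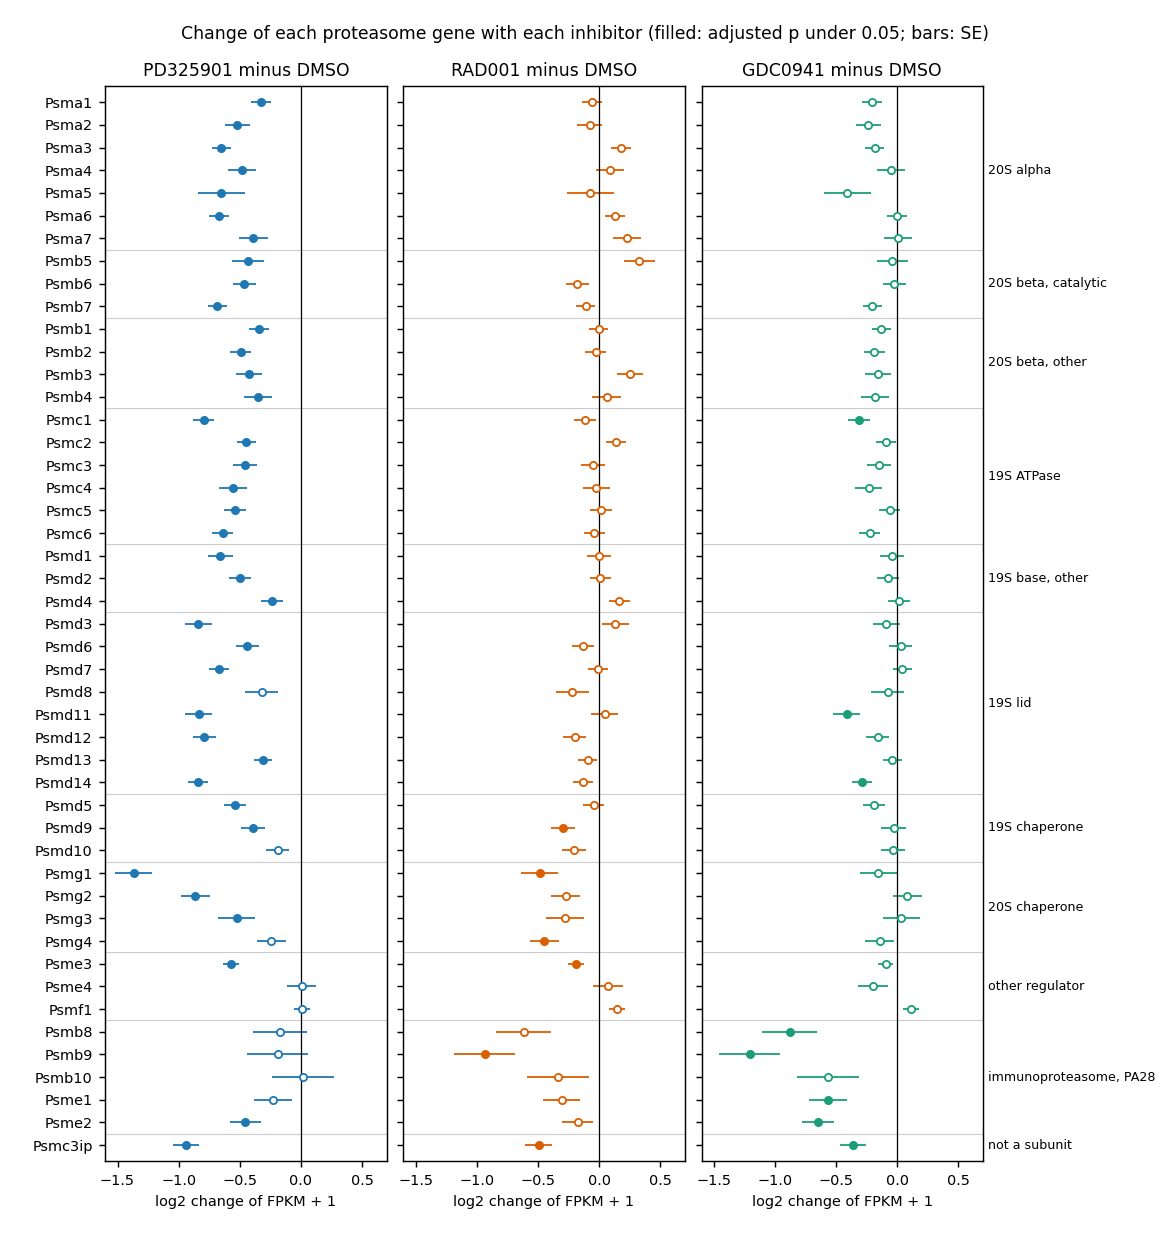
Log2 change of each proteasome gene against DMSO in the 3 inhibitor comparisons, ordered by role, with filled points for adjusted p under 0.05 (limma). The points for PD325901 lie left of 0 across the 20S core and the 19S particle, with 38 of 47 filled. Those for RAD001 (6 filled) and GDC0941 (8 filled) lie on both sides of 0, with 32 and 40 of the 47 negative. Their medians are -0.06 and -0.15, against 0.00 and 0.02 over all genes tested. GDC0941 is lowest at Psmb9 (-1.21).

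In the 20S core all 14 genes fell with PD325901, by 0.33 to 0.69 on the log2 scale (median -0.47). The core genes together summed to 2124, 2337 and 2277 FPKM under DMSO and to 1643, 1559 and 1633 under PD325901. For the cutting subunit Psmb7, which cuts after basic residues, the DMSO libraries had 165, 163 and 156 FPKM and the PD325901 libraries 102, 95.5 and 102. The groups did not overlap, and the change was -0.69 ± 0.08 (SE, adjusted p = 4.86e-05). Psmb5, the chymotrypsin-like subunit and the main target of the drug bortezomib, had 156, 173 and 158 FPKM under DMSO and 127, 113 and 120 under PD325901. It fell by 0.43 ± 0.13 (adjusted p = 0.0168). Psmb6, the caspase-like subunit, had 172, 152 and 153 against 131, 108 and 107 FPKM and fell by 0.46 ± 0.09 (adjusted p = 0.00206). All 7 alpha subunits, which form the gate of the barrel, fell by 0.33 (Psma1) to 0.67 (Psma6).

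In the 19S particle 16 of 17 genes fell, with a median change of -0.56. The sums over the particle were 1331 to 1357 FPKM under DMSO and 864 to 969 under PD325901. The largest fall was that of the lid scaffold Psmd3, with 61.0, 76.8 and 72.5 FPKM under DMSO and 41.7, 36.4 and 37.6 under PD325901. Each treated library was below each control, and the change was -0.84 ± 0.11 (adjusted p = 0.000138). The deubiquitinase of the lid, Psmd14 (RPN11), which cuts the ubiquitin chain from the substrate, fell by 0.84 ± 0.08, and its neighbour Psmd11 also fell by 0.84. The 6 ATPases fell by 0.45 (Psmc2) to 0.80 (Psmc1). Psmd4, a ubiquitin receptor, fell least among those that passed, by 0.24 ± 0.09 (adjusted p = 0.0490), and the lid gene Psmd8 changed by -0.32 ± 0.13 (adjusted p = 0.0681). Replicate numbers were taken to pair the libraries in this comparison, from their correlation and not from the labels. With the number as a block Psmd8 passed (adjusted p = 0.0107) while Psmd4 did not (0.0616).

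The largest change of the 47 members was that of an assembly chaperone, Psmg1. Psmg1 (PAC1) and Psmg2 (PAC2) form a pair on which the alpha ring is built. Psmg1 had 21.2, 20.4 and 22.3 FPKM under DMSO and 7.61, 6.67 and 8.77 under PD325901. Its mean fell by 64.0%, the change was -1.37 ± 0.15 (adjusted p = 4.49e-05), and the groups were far apart. Psmg2 had 20.4, 19.2 and 17.9 against 11.6, 9.0 and 9.77 FPKM and fell by 0.86 ± 0.12 (adjusted p = 0.000212). The second pair behaved unevenly, with Psmg3 lower by 0.53 ± 0.15 (adjusted p = 0.0155) and Psmg4 at -0.24 ± 0.12 (adjusted p = 0.115). Among the chaperones of the 19S base, Psmd5 fell by 0.54 and Psmd9 by 0.39, and Psmd10 (gankyrin) had a change of -0.19 ± 0.10 (adjusted p = 0.125; 0.0381 with the replicate block). Psmc3ip, which is no subunit, had 6.58, 7.42 and 6.94 against 3.76, 2.71 and 3.04 FPKM and fell by 0.94 ± 0.11. Of the regulators, Psme3 fell by 0.57 ± 0.06, and Psme4 and Psmf1 had changes of 0.00 ± 0.12 (adjusted p = 0.979) and 0.01 ± 0.07 (0.926).

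Of the 38 falls, 31 passed in each of the 17 alternative analyses. Psmd4 was lost in 11 of them. Leaving out 1 library ended the calls of Psma5 (PD325901 replicate 1, DMSO replicate 2 or DMSO replicate 3, adjusted p 0.0585 to 0.0663), Psma7 and Psme2 (DMSO replicate 2 or 3, 0.0621 to 0.0660 and 0.0537 to 0.0560), Psmb5 (replicate 2 of either group, 0.0595 to 0.0614), Psmg3 (PD325901 replicate 2 or DMSO replicate 3, 0.0596 to 0.0619) and Psmb4 (replicates 2 and 3 of either group, and also median-ratio scaling, 0.0615 to 0.0956).

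**Figure D2:**
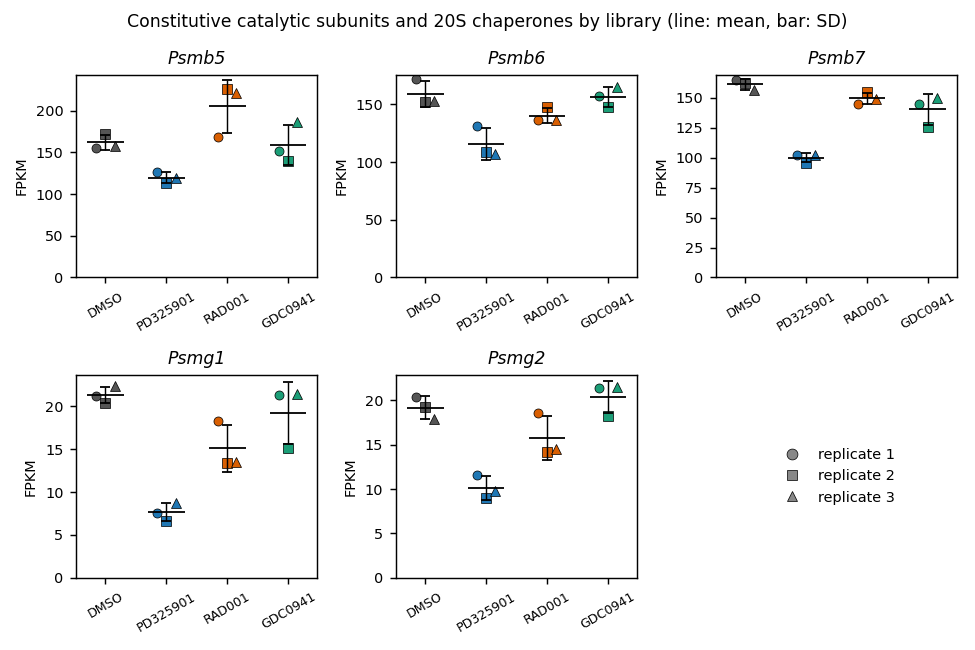
FPKM of the 3 constitutive cutting subunits and of the core chaperones Psmg1 and Psmg2 in each library (symbols by replicate number), with the mean as a line and the SD as a bar (n = 3). The PD325901 libraries lie below the DMSO libraries in all 5 panels, with Psmg1 at 6.67 to 8.77 against 20.4 to 22.3 FPKM.

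Of the 5 immunoproteasome genes 1 fell under PD325901. Psme2, a subunit of the PA28 ring, had 221, 303 and 296 FPKM under DMSO and 182, 197 and 214 under PD325901, without overlap, and fell by 0.45 ± 0.13 (adjusted p = 0.0126). Psmb8 (LMP7) changed by -0.17 ± 0.22 (adjusted p = 0.550), Psmb9 (LMP2) by -0.19 ± 0.25 (0.563), Psmb10 (MECL-1) by 0.02 ± 0.25 (0.964) and Psme1 by -0.23 ± 0.15 (0.252). Their libraries overlapped with DMSO. The spread of these 5 genes followed the replicate number, since 4 of the 5 were lowest in replicate 1 in all 4 groups, against 1 of the other 42 members. Without replicate 1 in every group, Psmb8 (-0.29, adjusted p = 0.0292) and Psme1 (-0.34, 0.00917) passed, Psme2 still did (-0.54), and Psmb9 (-0.33, 0.0791) and Psmb10 (-0.18, 0.139) did not. The T cell gene Cd3g was likewise lowest in replicate 1 in all 4 groups, with 0.0694, 1.71 and 1.48 FPKM under DMSO and 0, 2.47 and 2.00 under PD325901. What replicate 1 differed in was not tested.

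With the PI3K inhibitor GDC0941, most immunoproteasome genes and few genes of the constitutive particle passed as lower in RNA level. Of the 41 proteasome genes outside the immunoproteasome, 34 had a negative change, with a median of -0.10. Of the 47 members, 8 fell and 0 rose (0 also at an unadjusted p under 0.05), where 12.7% of all genes tested fell and 11.6% rose, and 4 of the 8 were immunoproteasome genes. The treated libraries lay wholly below DMSO in 14 members and above in 1, against 18.3% and 20.3% of all genes. All 5 immunoproteasome genes had a negative change, with a median of -0.65, against -0.15 over all members and 0.02 over all genes tested. Psmb9 had 89.9, 163 and 157 FPKM under DMSO and 51.3, 49.3 and 71.7 under GDC0941. The highest treated library was below the lowest control, and the change was -1.21 ± 0.25 (adjusted p = 0.00546), with a mean of 57.4 against 136 FPKM. Psmb8 had 136, 225 and 220 against 87.7, 98.6 and 123 FPKM and fell by 0.88 ± 0.22 (adjusted p = 0.0146), again without overlap. Of the PA28 pair, Psme2 had 158, 173 and 188 FPKM under GDC0941 and fell by 0.65 ± 0.13 (adjusted p = 0.00422), and Psme1 went from 149, 206 and 207 to 111, 122 and 143 FPKM and fell by 0.57 ± 0.15 (adjusted p = 0.0214). Psmb10 had 63.5, 122 and 120 FPKM under DMSO and 55.9, 64.5 and 78.6 under GDC0941. The groups overlapped through DMSO replicate 1, and its change of -0.57 ± 0.25 did not pass (adjusted p = 0.127), while without replicate 1 in every group it was -0.76 (0.000256). The sums of T and NK cell, B cell, stroma and megakaryocyte markers given above were also lower under GDC0941 than under DMSO, without overlap. That of the myeloid markers was higher, with Itgam at 537 ± 59.5 against 336 ± 6.0 FPKM. Within that list Mpo (3.94 ± 0.66 against 23.1 ± 0.80 FPKM) and Elane (2.66 ± 0.44 against 34.6 ± 8.6) were lower, and the other detected markers had higher means. The part of these cell markers in the falls was not tested.

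In the constitutive particle 0 of the 14 core genes passed under GDC0941, and at an unadjusted p under 0.05 the count was 4, all lower. The change was negative in 13 of the 14, with a median of -0.17 against 0.02 over all genes tested. Psmb5, Psmb6 and Psmb7 changed by -0.04 ± 0.13, -0.02 ± 0.09 and -0.20 ± 0.08. In the 19S particle 3 of 17 fell. They were the lid gene Psmd11 (-0.41 ± 0.11, adjusted p = 0.0193), the ATPase Psmc1 (-0.31 ± 0.09, 0.0246) and the deubiquitinase Psmd14 (-0.29 ± 0.08, 0.0245). Of the 7 chaperones 0 passed (0 also at an unadjusted p under 0.05), and Psmg1 was at 21.3, 15.1 and 21.4 FPKM (-0.16 ± 0.15, adjusted p = 0.499). Psmc3ip fell by 0.36 ± 0.11. The calls of Psmb9 and Psme2 stood in each of the 17 alternatives. Leaving out 1 library ended those of Psmb8 (DMSO replicate 2 or 3, adjusted p 0.0608 to 0.0634), Psme1 (GDC0941 replicate 1 or 2 or DMSO replicate 2 or 3, 0.0533 to 0.0848), Psmc1 (GDC0941 replicate 2 or any DMSO replicate, 0.0515 to 0.0885), Psmd11 (GDC0941 replicate 2 or 3 or DMSO replicate 1, 0.0563 to 0.0700), and, as did some other settings, Psmd14 (GDC0941 replicate 2 or any DMSO replicate, 0.0579 to 0.0862) and Psmc3ip (GDC0941 replicate 1 or 2 or DMSO replicate 2 or 3, 0.0539 to 0.112). Without replicate 1 in every group 17 members fell, and 23 did with library weights.

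**Figure D3:**
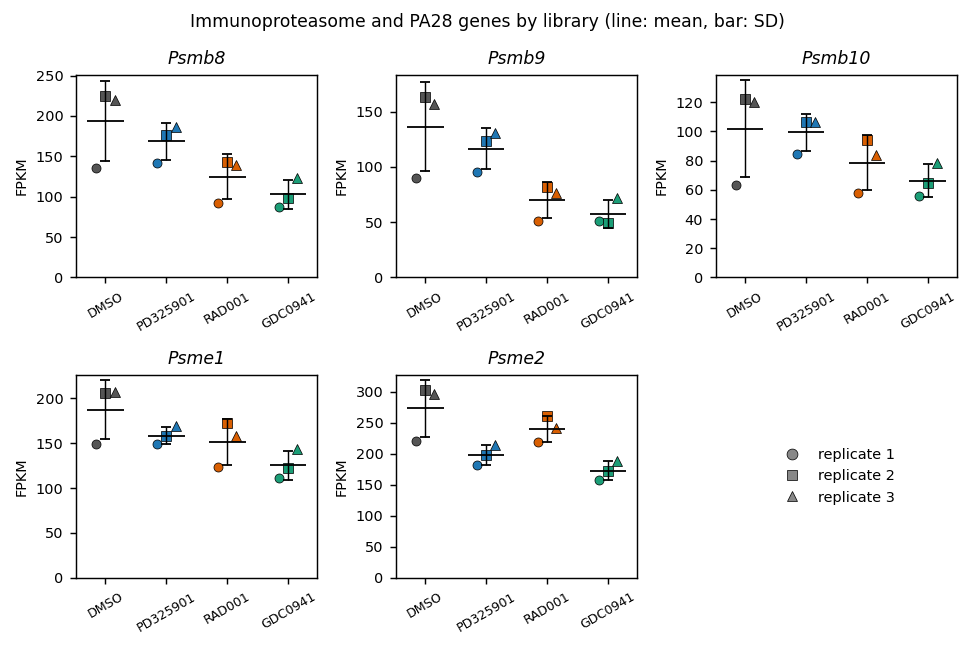
FPKM of the 5 immunoproteasome and PA28 genes in each library (symbols by replicate number), with the mean as a line and the SD as a bar (n = 3). Replicate 1 is the lowest or near the lowest library of its group, and the GDC0941 libraries of Psmb9 (49.3 to 71.7) lie below those of DMSO (89.9 to 163).

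Under mTOR inhibition by RAD001, 6 members fell and 0 rose (4 rose at an unadjusted p under 0.05), where 15.9% of all genes tested fell and 15.4% rose. The members' median change was -0.06 (0.01 with library weights) against 0.00 over all genes tested, and the treated libraries lay wholly below DMSO in 10 members and above in 2, against 25.6% and 25.3% of all genes. None of the 14 core genes or the 17 genes of the 19S particle passed, with medians of 0.03 and -0.02, and at an unadjusted p under 0.05 the counts were 3 (all higher) and 0. The 1 immunoproteasome gene that fell was Psmb9, which had 51.3, 81.9 and 76.3 FPKM against 89.9, 163 and 157 under DMSO. The groups did not overlap, and the change was -0.94 ± 0.25 (adjusted p = 0.0151). Psmb8 had 92.6, 143 and 140 FPKM, overlapping with DMSO through replicate 1 of that group. Its change was -0.62 ± 0.22 (adjusted p = 0.0550). With the replicate block, in a comparison taken as paired from correlation alone, Psmb8 passed (0.00171), as did Psme1 (-0.31, 0.0321). Psmb10 (-0.34 ± 0.25, adjusted p = 0.330) and Psme2 (-0.18 ± 0.13, 0.316) passed with neither fit. Without replicate 1 in every group all 5 immunoproteasome genes passed, Psmb9 at -1.01, Psmb8 at -0.65, Psmb10 at -0.44 (adjusted p = 0.00516), Psme1 at -0.32 and Psme2 at -0.26 (0.0198). Leaving out DMSO replicate 1 alone removes the lowest control of each of these genes and keeps RAD001 replicate 1, which deepens the changes. All 5 passed there, with Psmb10 at -0.64 (0.0375) and Psme2 at -0.32 (0.0474), but this adds no support to their falls. B cell markers summed lower under RAD001 than under DMSO without overlap, as did those of stroma. Myeloid and megakaryocyte markers summed higher, also without overlap. Within the myeloid list Mpo (2.25 ± 2.08 against 23.1 ± 0.80 FPKM) and Elane (1.16 ± 1.55 against 34.6 ± 8.6) were lower, and the other detected markers had higher means. The part of these cell markers was not tested.

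The chaperones gave 3 of the 6 falls under RAD001. Psmg1 had 18.3, 13.4 and 13.5 FPKM against 21.2, 20.4 and 22.3 under DMSO, a change of -0.49 ± 0.15 (adjusted p = 0.0311). Psmg4 fell by 0.45 ± 0.12 (adjusted p = 0.0142) and Psmd9 by 0.30 ± 0.10 (0.0433), and all 7 chaperones had a negative change. With the replicate block Psmg2 (-0.27, 0.0357) and Psmd10 (-0.20, 0.0378) passed too, and the nuclear activator Psme3 (-0.19 ± 0.06, adjusted p = 0.0481) did not (0.0644). Psmc3ip fell by 0.50 ± 0.11 and was the 1 call of the 6 that stood in all 17 alternatives. Leaving out 1 library ended the calls of Psmb9 (DMSO replicate 2 or 3, adjusted p 0.0631 to 0.0656), Psmg4 (RAD001 replicate 3 or DMSO replicate 2 or 3, 0.0510 to 0.0656), Psmg1 and Psmd9 (RAD001 replicate 2 or 3 or any DMSO replicate, 0.0513 to 0.112 and 0.0511 to 0.171) and Psme3 (any library but DMSO replicate 1, 0.0629 to 0.157).

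Among the constitutive cutting subunits Psmb5 was at 169, 226 and 222 FPKM under RAD001 against 156, 173 and 158 under DMSO. The groups overlapped through RAD001 replicate 1, and the change of 0.33 ± 0.13 did not pass (adjusted p = 0.0731), while it was 0.44 (0.0154) without replicate 1 in every group. Psmb6 and Psmb7 changed by -0.18 ± 0.09 and -0.11 ± 0.08. The count of calls in this comparison moved with the settings. Without replicate 1 in every group 5 members rose and 13 fell, with library weights 12 rose and 16 fell, and after quantile normalization 0 rose and 15 fell.

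Ratios within a library set each inducible cutting subunit against the constitutive one it replaces. Psmb8 stood to Psmb5 at 0.873, 1.30 and 1.39 under DMSO and at 1.12, 1.56 and 1.56 under PD325901. It was 0.548, 0.631 and 0.630 under RAD001 and 0.580, 0.708 and 0.660 under GDC0941, so each library of these 2 groups lay below each library of the others. Psmb9 to Psmb6 was 0.522, 1.07 and 1.03 under DMSO, 0.727, 1.14 and 1.23 under PD325901, 0.377, 0.553 and 0.560 under RAD001 and 0.327, 0.334 and 0.435 under GDC0941. Here the GDC0941 libraries were below all DMSO libraries, while RAD001 and DMSO overlapped. Psmb10 to Psmb7 was 0.385, 0.749 and 0.767 under DMSO and 0.830, 1.11 and 1.04 under PD325901, the 1 ratio in which PD325901 exceeded every DMSO library. It was 0.399, 0.611 and 0.561 under RAD001 and 0.385, 0.512 and 0.523 under GDC0941. The ratios are of RNA levels, and no test was run on them. Psmb5, Psmb6 and Psmb7 have near-identical retrocopies, as given above, so the absolute size of the ratios is uncertain.

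**Figure D4:**
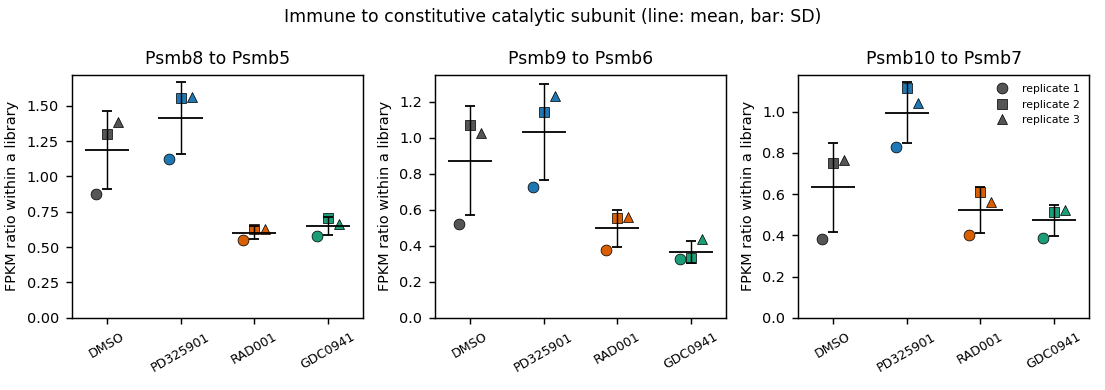
Ratio of FPKM of each immunoproteasome cutting subunit to its constitutive counterpart in each library (symbols by replicate number), with the mean as a line and the SD as a bar (n = 3). Psmb8 to Psmb5 lies at 0.548 to 0.708 in the RAD001 and GDC0941 libraries and at 0.873 to 1.56 in the others.

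The inhibitors were set against each other at their doses of 20 µM (PD325901 and GDC0941) and 26 µM (RAD001). RAD001 and GDC0941 each differed from PD325901 in many constitutive genes, and in 1 and 2 immunoproteasome genes. With RAD001 against PD325901, 35 members were higher and 1 lower, where 29.4% of all genes tested were higher and 20.8% lower. The largest differences among the higher genes were those of Psmd3 (0.97 ± 0.11, adjusted p = 3.01e-05), Psmd11 (0.88 ± 0.11) and Psmg1 (0.88 ± 0.15), and the lower gene was Psmb9 (-0.75 ± 0.25, adjusted p = 0.0269; 0.0768 to 0.0992 without RAD001 replicate 1 or PD325901 replicate 2 or 3). With the replicate block (these libraries were taken as paired) 3 members were lower, Psmb8 (-0.44, adjusted p = 0.00548) and Psmb10 (-0.35, 0.0457) among them, and Psme2 was also higher (0.28, 0.0205). With GDC0941 against PD325901, 33 were higher and 2 lower, where 30.7% and 20.9% of all genes were. The chaperones Psmg1 (1.21 ± 0.15, adjusted p = 6.04e-05) and Psmg2 (0.95 ± 0.12) and the lid scaffold Psmd3 (0.75 ± 0.11) had the largest differences among the higher genes, and Psmb9 (-1.02 ± 0.25, adjusted p = 0.00533) and Psmb8 (-0.71 ± 0.22, 0.0199; 0.0527 to 0.0695 without GDC0941 replicate 1 or 2 or PD325901 replicate 2 or 3) were lower. All 14 core genes were higher with RAD001 than with PD325901, and 10 with GDC0941. In the first comparison 27 of the 36 calls, and in the second 24 of the 35, stood in each of the 17 alternatives. The calls of Psma1, Psma5, Psmb4 and Psmb6 in the first were each lost without RAD001 replicate 2, among other settings (adjusted p 0.0547 to 0.414).

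Between RAD001 and GDC0941 4 members were higher with RAD001 and 0 lower, where 9.35% and 8.09% of all genes were. At an unadjusted p under 0.05, 3 were lower, and with the replicate block (these libraries were taken as paired) Psmg2 was lower (-0.36, adjusted p = 0.0187). The 4 were Psme2 (0.47 ± 0.13, adjusted p = 0.0271), Psmd11 (0.46 ± 0.11, 0.0168), Psmb3 (0.41 ± 0.11, 0.0225) and Psma3 (0.37 ± 0.08, 0.0116). Each of these calls was lost on leaving out RAD001 replicate 2 (in at most 5 of the 17 alternatives, adjusted p 0.0541 to 0.118). Those of Psmb3, Psmd11 and Psme2 were also lost without RAD001 replicate 3, those of Psmb3 and Psme2 without GDC0941 replicate 2, that of Psmd11 without GDC0941 replicate 3 and that of Psme2 without GDC0941 replicate 1. Without replicate 1 in every group 22 members were higher and 2 lower. The 3 comparisons with DMSO share the same control libraries, so their values are given side by side and not as independent results.

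Genes that work with the proteasome under other names were read from the same fit. The counts of each list below stand against all genes tested, of which 28.2% fell and 18.4% rose with PD325901, 15.9% and 15.4% with RAD001 and 12.7% and 11.6% with GDC0941. Of 11 partners tested, 7 fell and 0 rose with PD325901. Among them were the deubiquitinases of the 19S particle Usp14 (-0.96 ± 0.09, adjusted p = 1.44e-05) and Uchl5 (-1.02 ± 0.15), the thioredoxin-like Txnl1 (-0.85 ± 0.09) and the ubiquitin receptor Adrm1 (-0.47 ± 0.08). Usp14 had 24.0, 24.4 and 24.0 FPKM under DMSO and 12.6, 11.4 and 11.9 under PD325901, without overlap. With RAD001, Uchl5 (-0.67 ± 0.15) and Zfand2a (-0.42 ± 0.08) fell and Akirin2, which carries proteasomes into the nucleus, rose (0.42 ± 0.10). With GDC0941 0 of the 11 passed (3 at an unadjusted p under 0.05), and the most abundant, the small lid component Shfm1, was at 530 ± 54.8 FPKM against 430 ± 7.0. Of 11 substrate shuttles and p97 genes, 7 fell with PD325901, among them the p97 unfoldase Vcp (-0.55 ± 0.10), its cofactor Nsfl1c (-0.62 ± 0.07) and the shuttles Rad23b (-0.86 ± 0.10) and Ubqln1 (-0.39 ± 0.09). With the replicate block Faf1 fell too (-0.35, adjusted p = 0.00273). With RAD001 1 of the 11 rose, Faf2 (0.24 ± 0.08), lost in 6 of the 17 alternatives with leave-outs of replicates 2 and 3 of both groups among them (adjusted p 0.0513 to 0.157). With GDC0941 0 passed (3 at an unadjusted p under 0.05), and Sqstm1, the most abundant, was at 443 ± 38.7 against 621 ± 311 FPKM. The DMSO mean of Sqstm1 was raised by replicate 1 (980, 440 and 442 FPKM), and without that library its change with GDC0941 was 0.0020 in place of -0.38. Its fall with PD325901 (-0.81 ± 0.25) was then -0.43 (adjusted p = 0.0172). With RAD001 it turned from -0.16 ± 0.25 (adjusted p = 0.657) to 0.34 (0.00346) without replicate 1 in every group and to 0.28 (0.0499) with library weights.

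The genes that supply ubiquitin and the regulators of the proteasome genes were measured beside them. Of 5 genes for ubiquitin and its activation, 3 fell with PD325901: the activating enzymes Uba1 (-0.50 ± 0.09) and Uba6 (-0.77 ± 0.20) and the fusion gene Rps27a (-0.28 ± 0.10, adjusted p = 0.0429; lost without any 1 of the 6 libraries, among 10 alternatives, 0.0544 to 0.789; 0.0583 with the replicate block). With RAD001 the polyubiquitin gene Ubb (0.36 ± 0.12; lost without replicate 2 or 3 of either group, among 6 alternatives, adjusted p 0.0562 to 0.963) rose. With GDC0941 0 passed (0 also at an unadjusted p under 0.05), with Rps27a at 893 ± 105 against 793 ± 9.41 FPKM. Nfe2l1, which encodes NRF1, the factor that raises proteasome genes when the protease is short, had 66.4, 56.0 and 60.7 FPKM under DMSO and 39.8, 35.0 and 39.4 under PD325901. It fell by 0.67 ± 0.10 with PD325901 (adjusted p = 0.000401) and by 0.43 ± 0.10 with RAD001 (0.00852). Its small MAF partner Maff fell with PD325901 (-1.03 ± 0.22) and rose with RAD001 (1.21 ± 0.22) and GDC0941 (0.97 ± 0.22). Mafg (0.65 ± 0.12) and the NRF1-processing enzyme Ngly1 (0.46 ± 0.14; lost without RAD001 replicate 2 or 3 or any DMSO replicate, adjusted p 0.0629 to 0.120) rose with RAD001.

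Among 11 genes of the interferon route that controls the immunoproteasome, 2 rose and 2 fell with GDC0941, where 11.6% and 12.7% of all genes tested did. Stat2, a factor of type I interferon signalling, had 26.1, 26.1 and 31.7 FPKM under DMSO and 11.7, 16.3 and 14.3 under GDC0941. The groups did not overlap, and it fell by 0.95 ± 0.30 (adjusted p = 0.0398; lost without any 1 of the 6 libraries, 0.0606 to 0.119). The interferon receptor chain Ifnar2 (-0.28 ± 0.07, 0.0198; 0.0591 to 0.0727 without GDC0941 replicate 2 or DMSO replicate 1 or 2, or with only the 2 groups fitted) also fell, and the interferon gamma receptor chains Ifngr1 (0.57 ± 0.09) and Ifngr2 (0.30 ± 0.08; 0.0540 with only the 2 groups fitted) rose. With PD325901 4 rose and 1 fell, namely Ifngr1 (0.67 ± 0.09), Ifnar2 (0.45 ± 0.07), Ifngr2 (0.32 ± 0.08) and Jak2 (0.35 ± 0.09) against Ifnar1 (-0.56 ± 0.10). With RAD001 4 rose, led by Ifngr2 (0.62 ± 0.08) and Ifnar1 (0.50 ± 0.10), with Jak1 (0.24 ± 0.08) and Ifnar2 (0.22 ± 0.07) lost without replicate 2 or 3 of either group, and Ifnar2 also without DMSO replicate 1 (in 5 and 8 alternatives, adjusted p 0.0996 to 0.160 and 0.0514 to 0.236). With the replicate block Jak2 (0.26 ± 0.09, adjusted p = 0.0555 without and 0.0242 with it) passed with RAD001, and Ifnar2 (0.0514) and the shuttle Faf2 (0.0513) did not. Irf1, an interferon-induced transcription factor, had the largest negative change of the list with GDC0941 and did not pass (-1.24 ± 0.52, adjusted p = 0.106). Irf1 had 29.3, 101 and 111 FPKM under DMSO and 14.2, 40.9 and 40.1 under GDC0941, overlapping through DMSO replicate 1. It passed without replicate 1 in every group (-1.37, 4.33e-05). Its pass without DMSO replicate 1 alone (-1.85, 0.0150) adds no support, since the lowest control was left out and the lowest treated library was kept. Of the 11 genes Stat2, Irf1, Irf9 and Nlrc5, and of the peptide genes described next Tap1, Tap2, Tapbpl and H2-K1, were lowest in replicate 1 in all 4 groups.

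Of 10 genes that carry peptides onward to MHC class I, 4 fell and 0 rose with GDC0941. They were the transporter chains Tap1 (-1.15 ± 0.36, adjusted p = 0.0365) and Tap2 (-0.75 ± 0.20, 0.0199) and the loading factors Tapbp (-0.63 ± 0.12, 0.00303) and Tapbpl (-0.998 ± 0.27, 0.0203). Tap1, which shares its start region with Psmb9, had 46.4, 76.0 and 75.9 FPKM under DMSO and 20.7, 31.1 and 35.8 under GDC0941. The call of Tapbp stood in each alternative. Those of Tap1 and Tap2 were lost without GDC0941 replicate 1 or 2 or DMSO replicate 2 or 3 (adjusted p 0.0653 to 0.115 and 0.0520 to 0.0784) and that of Tapbpl without GDC0941 replicate 1 or DMSO replicate 2 or 3 (0.0508 to 0.0834). With PD325901 H2-D1 (0.76 ± 0.21; 0.0868 after quantile normalization) and B2m (0.46 ± 0.17; lost without any 1 library, 0.0745 to 0.135) rose, as did H2-K1 with the replicate block (0.49, adjusted p = 0.0310; 0.108 without it), and the chaperones Calr (-0.71 ± 0.13) and Pdia3 (-0.60 ± 0.12) and the trimming enzyme Erap1 (-0.46 ± 0.15; lost without PD325901 replicate 1 or 2 or DMSO replicate 2 or 3, 0.0591 to 0.104) fell. With RAD001 0 of the 10 passed (0 at an unadjusted p under 0.05), while Tap1 (-0.55, 0.00690) and Tapbpl (-0.39, 0.0415) did with the replicate block, and B2m was at 3165 ± 807 against 3306 ± 59.1 FPKM.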

How the data were processed

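RNA sequencing measured 12 libraries of mouse AML cells, 3 for each of 4 groups taken from the sample labels. The authors deposited 1 table of normalized FPKM values for 23234 genes. Per the submitters' processing notes, TopHat2 2.0.4 and Cuffdiff were used with the build mm9, while the sources used here name neither the annotation nor the kind of normalization. From these FPKM values log2(FPKM + 1) was taken for the 10305 genes that averaged 1 FPKM or more, and 4 group means were fitted with limma 3.58.1 (R 4.3.3, eBayes with a trend, 8 residual degrees of freedom). Tests were two-sided, with Benjamini-Hochberg adjustment over all genes tested in a comparison and a threshold of 0.05. Changes and their SE are on the log2(FPKM + 1) scale, which understates changes of low genes. FPKM are not read counts, so no count model was used and the depth is unknown. The fit was tested on simulated data.

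The members and gene lists were chosen with earlier results of these data known. Some genes of the partner lists are not reported here and are left out of those lists' counts. Genes were named by rule: the immunoproteasome genes and their counterparts, up to 4 largest rises and falls per comparison with DMSO, each role's highest and lowest member, up to 4 smallest adjusted p in other lists, or the most abundant gene where none passed, and 3 largest differences each way between inhibitors. Genes named to complete a count (Psmd8, Psmd10, Jak2, Stat2, Irf1 and B2m among them), to give the ends of a range or to say which calls were lost were chosen after their values were seen.

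Replicate numbers from the labels were taken to pair libraries where each same-numbered pair correlated above 0.1 in its deviations from the group means. This held for PD325901 and DMSO (0.316, 0.240 and 0.183), RAD001 and DMSO (0.379, 0.232 and 0.201), RAD001 and PD325901 (lowest 0.149) and RAD001 and GDC0941 (lowest 0.309), and not for GDC0941 with DMSO (lowest 0.0354) or PD325901 (lowest -0.139). The labels themselves name no pairs. Replicate 1 stood apart in every group, and its part in these correlations was not tested. The block was fitted over all 12 libraries, those of GDC0941 included. The 17 alternatives per comparison covered the pseudocount, the filter, median-ratio scaling, quantile normalization, no trend, library weights, a replicate block, fitting only the 2 groups compared, and leaving out libraries.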

Additional observations from a re-analysis of the deposited data

How the results depend on the processing

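The falls of the members with PD325901 were between 32 and 42 in number when libraries were left out, with 0 rises throughout. Leaving out libraries gave 0 to 5 rises and 1 to 13 falls with RAD001, 0 rises and 3 to 17 falls with GDC0941, 29 to 36 higher and 0 to 3 lower with RAD001 against PD325901, 26 to 34 higher and 1 to 5 lower with GDC0941 against PD325901, and 0 to 22 higher and 0 to 2 lower with RAD001 against GDC0941. Library weights gave 12 rises and 16 falls with RAD001, 23 falls with GDC0941, 2 lower with RAD001 and 4 lower with GDC0941 against PD325901, and 28 higher and 1 lower with RAD001 against GDC0941. Quantile normalization gave 15 falls with RAD001, 13 with GDC0941, 3 and 4 lower against PD325901, and 2 higher and 3 lower with RAD001 against GDC0941. With only the 2 groups fitted, 4 were lower with GDC0941 against PD325901 and 1 higher with RAD001 against GDC0941. With the replicate block 3 were lower with RAD001 and 4 with GDC0941 against PD325901, and 1 lower (Psmg2) with RAD001 against GDC0941. In GDC0941 against DMSO, where the numbers were not taken to pair, the replicate block gave 10 falls against 8. There 1 of the 3 libraries correlated best with its own number, as in GDC0941 against PD325901. The same 1 of 3 held for RAD001 against DMSO and against PD325901, which were taken as paired. It was 2 for RAD001 against GDC0941 and 3 for PD325901 against DMSO. Libraries without any pairing would reach 1 of 3 on average, so the pairing of RAD001 with DMSO and with PD325901 is uncertain. In the comparisons with DMSO that were taken as paired the replicate block changed no call of a member beyond those named beside the results. No member that passed turned direction under any alternative in the 6 comparisons. Of those that did not pass, 3 of 9 with PD325901, 17 of 41 with RAD001 and 15 of 39 with GDC0941 turned under at least 1 alternative, with 0 of them passing in the new direction. Among the 13 members followed by value against DMSO these were Psmb10 with PD325901 (-0.15 with weights, -0.18 without replicate 1 in every group, -0.04 without PD325901 replicate 2 or 3, -0.29 without DMSO replicate 1; range over single libraries left out -0.29 to 0.18, at most without DMSO replicate 2), and with GDC0941 Psmb6 (0.03 without replicate 1 in every group, 0.02 without GDC0941 replicate 2, 0.034 without DMSO replicate 1; down to -0.061 without GDC0941 replicate 3), Psmb5 (0.051 without GDC0941 replicate 2, 0.0068 without DMSO replicate 2; down to -0.16 without GDC0941 replicate 3) and Psmg1 (0.0020 without GDC0941 replicate 2; down to -0.24 without GDC0941 replicate 3). The cause was not tested. Of the changes of named members under the alternatives, 583 kept direction and side of the threshold, 41 passed newly and 28 no longer passed. With the depth unknown, counting error could not be measured apart from the spread between libraries.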
